A study of Mus musculus with 20 samples.

Results

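The TCRα clones described here are in-frame rearrangements in which the aligner left no base unassigned between the end of the V gene segment and the start of the J gene segment. CDR3α is the stretch of the TCRα chain encoded across this junction. A clone was a member when it had no frameshift and no stop codon and when its assigned V part touched or overlapped its assigned J part. In 17 mice, 53469 of 212832 in-frame TCRα clones met this rule, and the other 159363 clones served as the reference. The choice used only the position of the V end and the J start, not the abundance of a clone or the genotype of the mouse.

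The libraries were made from RNA of CD8 T cells of male C57BL/6 mice aged 9 to 12 weeks, sorted as TCRβ high CD4- CD8+ cells. The sort took 1000000 cells from lymph nodes and spleens per the study's methods, while the labels name lymph nodes. The question of the study was how the exchange of a proteasome subunit, which alters the peptides shown to developing T cells, affects the CD8 T cell repertoire. The 4 WT mice carried both specialised proteasome subunits. The 5 β5i-KO mice lacked Psmb8, which encodes the immunoproteasome subunit β5i, and the 4 β5t-KO mice lacked Psmb11, which encodes the thymoproteasome subunit β5t of cortical thymic epithelial cells. The 4 BIT mice were homozygous for an allele in which the Psmb11 sequence was placed in Psmb8, so that β5t is made where β5i normally is, and they kept their own Psmb11. The study made several BIT lines and describes 1 of them unless it says otherwise, and the labels do not name the line. All knockouts were germline, so that every cell of the animal carried them. The labels list 20 mice, of which 3 were left out (WT 5, β5t-KO 5 and BIT 3).

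A TCRα gene is assembled in the thymus by joining 1 TRAV segment to 1 TRAJ segment. Nucleases trim the segment ends, hairpin opening can leave short palindromic (P) nucleotides, and terminal deoxynucleotidyl transferase adds non-templated (N) nucleotides. A junction that lacks N nucleotides is set by the germline ends, their trimming and any P nucleotides. The same nucleotide sequence can thus arise independently in many cells and animals.

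The 8 member sequences that the text follows are shown first, since they make visible what such a junction is. Sequences 1 to 6 were the members found in the most mice, and they are printed with the part assigned to J in capitals. Sequences 7 and 8 were the members that differed between genotypes in edgeR's test, and they are printed with the bases matched by neither germline end in capitals.
Sequence 1, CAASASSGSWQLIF, TRAV14N-3 with TRAJ22: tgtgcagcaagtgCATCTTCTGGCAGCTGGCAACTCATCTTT
Sequence 2, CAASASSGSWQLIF in a second nucleotide form, TRAV14D-1 with TRAJ22: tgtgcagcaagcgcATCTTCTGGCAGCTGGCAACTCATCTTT
Sequence 3, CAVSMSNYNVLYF, TRAV7D-5 with TRAJ21: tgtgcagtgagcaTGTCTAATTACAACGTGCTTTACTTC
Sequence 4, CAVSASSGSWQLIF, TRAV3D-3 with TRAJ22: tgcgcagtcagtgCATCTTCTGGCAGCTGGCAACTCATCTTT
Sequence 5, TRAV14N-3 with TRAJ13: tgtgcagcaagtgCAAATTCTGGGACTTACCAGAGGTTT
Sequence 6, TRAV3D-3 with TRAJ13: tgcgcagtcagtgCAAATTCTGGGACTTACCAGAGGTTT
Sequence 7, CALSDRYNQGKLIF, TRAV12-1 with TRAJ23: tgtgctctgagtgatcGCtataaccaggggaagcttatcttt
Sequence 8, CALSDRYSNNRLTL, TRAV12-1 with TRAJ7: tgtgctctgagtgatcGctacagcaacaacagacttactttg

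Sequences 1, 3, 4, 5 and 6 each consisted of a whole germline V end followed directly by a whole germline J end. The germline V ends (GENCODE vM39, GRCm39, coding strand), from the codon of the conserved cysteine to the last base of the segment, were as follows.
TRAV14N-3, chr14:53607534-53608032, plus strand: tgtgcagcaagtg
TRAV3D-3, chr14:53209905-53210495, plus strand: tgcgcagtcagtg
TRAV7D-5, chr14:53073315-53073844, plus strand: tgtgcagtgagca
TRAV12-1, chr14:53775648-53776195, plus strand: tgtgctctgagtga

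The germline J ends of the same junctions, from the first base of the segment to the codon that closes the CDR3, were as follows.
TRAJ22, chr14:54434705-54434764, plus strand: catcttctggcagctggcaactcatcttt
TRAJ21, chr14:54436247-54436303, plus strand: tgtctaattacaacgtgctttacttc
TRAJ13, chr14:54443198-54443254, plus strand: caaattctgggacttaccagaggttt
TRAJ23, chr14:54433538-54433597, plus strand: tgaattataaccaggggaagcttatcttt
TRAJ7, chr14:54448927-54448985, plus strand: ggactacagcaacaacagacttactttg
Sequence 1 was thus 13 V bases and 29 J bases with nothing removed and nothing added. The coordinates are those of the whole annotated genes, so for the TRAV genes they reach beyond the part that holds the CDR3 start. A clone whose CDR3 could come from several near-identical TRAV copies listed all of them, as sequence 1 did with TRAV14-2, TRAV14D-1, TRAV14D-2 and TRAV14N-3, so the single copy used cannot be told.

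The label of these junctions as germline-like was checked against the germline segments themselves, because the aligner tolerates mismatches inside the V and J parts. Of the members, 26513 (49.6%) carried a mismatch in the V or J alignment, against 13176 (8.27%) of the other in-frame clones. When each junction was recounted from the germline ends with no mismatch and with palindromic nucleotides allowed, 31387 members (58.7%) were built whole from the germline ends and 22082 (41.3%) were not. Members that needed 1, 2 or 3 further bases made up 12.0%, 11.8% and 8.97%. Of the reference clones, 1636 (1.03%) were built whole by the recount. The rule therefore selects junctions with no unassigned base rather than junctions free of non-germline bases. The recount is given beside some of the results. For gene use between genotypes only counts of calls that changed on the recount are given. It is not given for the number of mice that hold a sequence.

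Sequences 2, 7 and 8 show such mismatches. Sequence 2 encodes the same residues as sequence 1 but holds 1 base that neither germline end supplies. It differs from sequence 1 by this 1 base only, and held 0.0684% of in-frame molecules on average against 0.712% for sequence 1. Whether it arose as a miscopied form of sequence 1 was not tested. In sequences 7 and 8 the whole TRAV12-1 end is followed by the palindromic bases tc, then by 2 unmatched bases in sequence 7 and 1 in sequence 8, and then by a trimmed J end. Within single mice, members built whole made up 53.9% to 65.1% of the members (59.1% ± 2.60, SD, n = 17). By genotype this proportion was 59.6% ± 1.91 in BIT, 57.8% ± 1.62 in WT, 59.7% ± 3.22 in β5i-KO and 59.0% ± 3.59 in β5t-KO mice.

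Depth per library was 1983032 to 8480570 reads, which traced back to between 14772 and 602397 unique molecules (median 171749). A unique molecule is 1 tagged cDNA, so reads that copy the same molecule count once. In-frame clones per mouse ranged from 656 in β5t-KO 2 to 28642 in BIT 1, and members from 192 to 6849 (median 2224). Reads per molecule ranged from 7.57 to 134, the highest in β5i-KO 4, the library with the fewest molecules. The libraries do not measure Psmb8 or Psmb11, so the genotypes could not be checked against them. Gene pairs of other αβ T cells were scarce among the members: TRAV11 with TRAJ18, the pair of invariant NKT cells, held at most 0.0300% of the member molecules of any mouse, and TRAV1 with TRAJ33, the pair of mucosal-associated invariant T cells, at most 0.0708%. All clones with TRAV1 or TRAV11 together made up 788 members, or 1.47%.

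Members were shared between mice more often than the other clones. A member's nucleotide sequence was found in at least 1 of the other 16 mice in 69.0% ± 3.54 of cases (SD, n = 17), against 36.2% ± 2.45 for the reference clones. The difference of 32.7 percentage points had the same direction in 17 of 17 mice (paired permutation test, two-sided, adjusted p = 2.57e-05 over 9 features). A shared sequence counts in every mouse that holds it, so the mice are not independent in this measure. The test treats them as independent. The lowest member value, 64.4% in BIT 1, lay above the highest reference value, 40.2% in β5i-KO 5, so the classes did not overlap in any mouse.

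The same comparison within the members separated those built whole from the rest. Members built whole were found in another mouse in 85.2% ± 3.58 of cases, members not built whole in 45.6% ± 3.59, and reference clones in 36.2% ± 2.45 (SD, n = 17). The first step was 39.6 points and the second 9.36 points, each in 17 of 17 mice (paired permutation test, adjusted p = 2.67e-05 for both). This split was made after the mismatches had been seen, and in this measure too the mice are not independent.

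Members not built whole also held more clones that differed by 1 base from a clone of the same mouse with at least 10 times its molecules. Such near copies made up 18.3% ± 7.61 of the members not built whole, 3.32% ± 1.75 of those built whole and 6.97% ± 3.70 of the reference clones. With these clones left out, a choice made after seeing the data, the percentages found in another mouse were 84.4% ± 3.73, 48.7% ± 5.79 and 36.8% ± 3.27, in the same order as before. The part of near copies in the mismatch count was not tested.

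**Figure D1:**
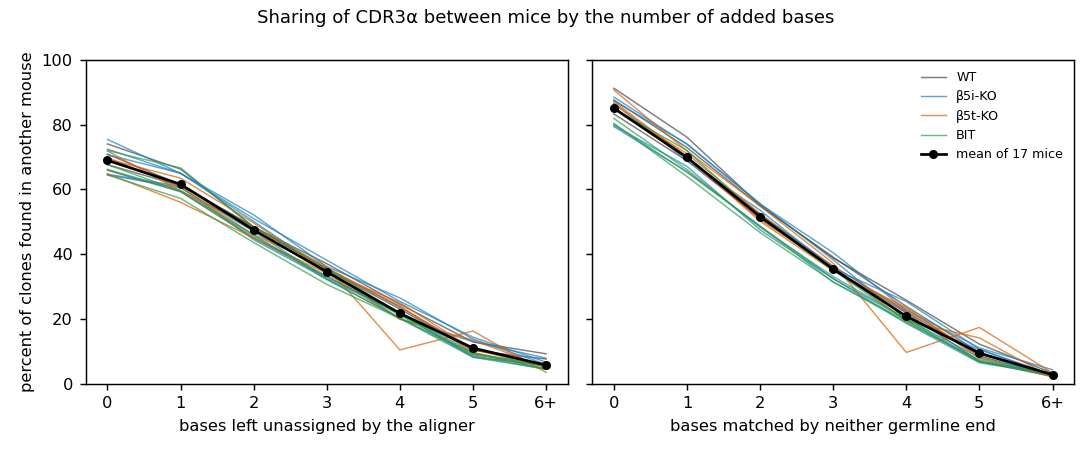
Percent of in-frame TCRα clones whose nucleotide sequence was found in another mouse (vertical axis) by the number of bases that the aligner left unassigned (left) or that neither germline end matched on the recount (right). Coloured lines are mice by genotype and the black line is the mean over mice; the mean falls from 69.0% to 5.75% on the left and from 85.0% to 2.82% on the right.

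Sharing fell with each further base. Clones with 0, 1, 2, 3, 4, 5 and 6 or more unassigned bases were found in another mouse in 69.0%, 61.6%, 47.5%, 34.6%, 21.7%, 11.02% and 5.75% of cases. With bases counted on the recount, the percentages were 85.0%, 69.9%, 51.6%, 35.4%, 20.8%, 9.45% and 2.82%. The fall was continuous, with no break at the limit of the rule. Just inside that limit stand the members with 0 unassigned bases and just outside it 32701 clones with 1, for which a CDR3α had a mean length of 13.3 residues in both, and 29.8 against 27.7 molecules per clone.

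Sequences present in most of the animals were mainly members. The members comprised 26816 distinct nucleotide sequences, 17.95% of the 149370 distinct in-frame sequences. Members made up 32.7% of the sequences found in at least 2 mice, 52.6% (2536 of 4822) of those in at least 5, 71.5% (468 of 655) of those in at least 10 and 91.7% (33 of 36) of those in at least 15. Of the 4 sequences found in all 17 mice, 3 were members. For 1226 sequences the aligner's call differed between clones, and each was counted once, in the class that held more of its molecules.

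Sequence 1 was the most abundant of the recurring members. It was present in all 17 mice and held 0.712% ± 0.253 of in-frame molecules (SD, n = 17), from 0.406% in β5t-KO 4 to 1.52% in β5t-KO 2. By genotype it held 0.612% ± 0.0175 in BIT, 0.713% ± 0.114 in WT, 0.603% ± 0.0867 in β5i-KO and 0.948% ± 0.458 in β5t-KO mice. The 4 BIT mice lay close together and the 4 β5t-KO mice spanned the whole range of the series. Its residues, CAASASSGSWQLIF, were encoded by 43 different nucleotide sequences, 27 of them members.

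The other recurring members were scarcer. Sequence 2 held 0.0684% and sequence 3 held 0.0622% of in-frame molecules on average, and both were found in all 17 mice. Sequence 4 held 0.176%, sequence 5 held 0.0710% and sequence 6 held 0.0668%, each in 16 mice. Sequence 4 held 0.437%, 0.245%, 0.190% and 0.130% in the 4 WT mice and 0.0877%, 0%, 0.0820% and 0.0474% in the 4 β5t-KO mice, so that these groups did not overlap. None of sequences 1 to 6 passed edgeR's test between genotypes.

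**Figure D2:**
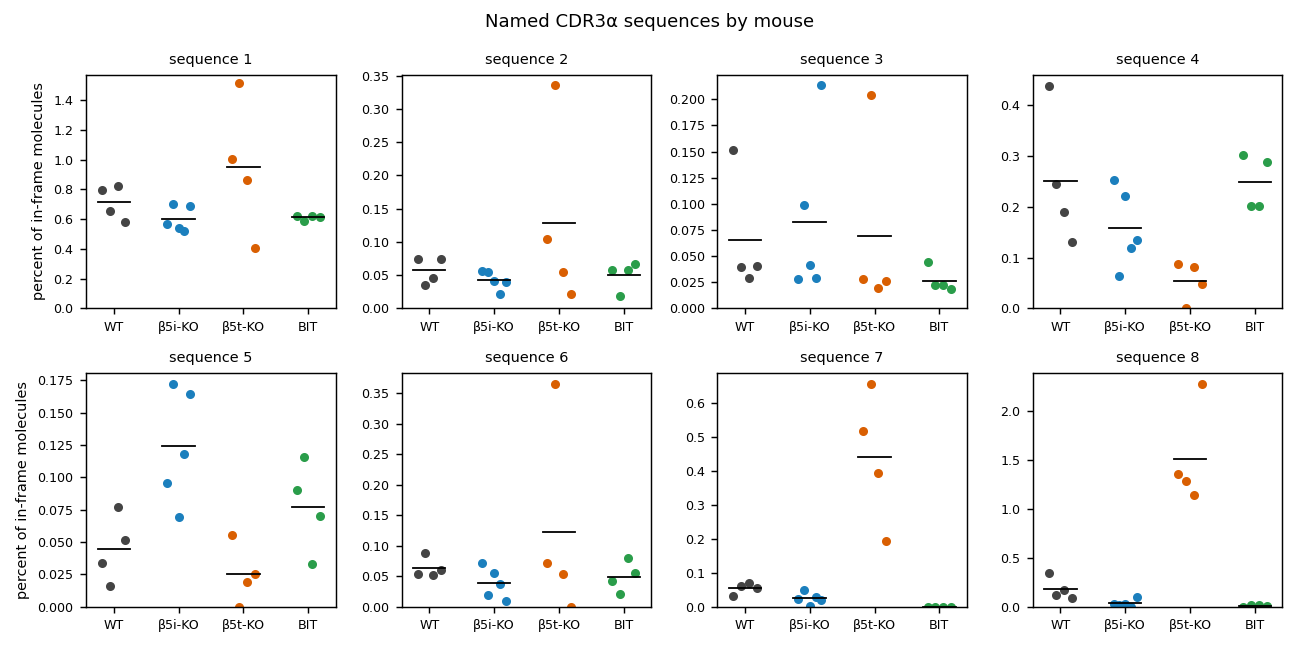
Percent of in-frame TCRα molecules held by each of the 8 printed sequences (1 panel each, vertical axes differ) by genotype. Points are mice and lines are group means; sequences 7 and 8 stand highest in all 4 β5t-KO mice, and sequence 7 is at 0 in all 4 BIT mice.

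Members were also carried by more molecules, and their CDR3α residues more often had another nucleotide form. They averaged 29.8 molecules per clone against 25.5 for the reference clones (difference 4.22, 16 of 17 mice, paired permutation test, adjusted p = 0.00027). In 38.4% of members, against 23.8% of reference clones, the same residues were also encoded by another nucleotide sequence in the same mouse (difference 14.6 points, 17 of 17 mice, adjusted p = 2.57e-05). The surplus of molecules lay in the members built whole, at 33.2 molecules per clone. Members not built whole averaged 25.1, and their difference from the reference clones of -0.452 was not past the threshold (10 of 17 mice, adjusted p = 0.593).

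The CDR3α of members was shorter. Members averaged 13.3 residues and reference clones 13.8, a difference of -0.459 residues with the members shorter in each of the 17 mice. Members averaged 1.76 bases trimmed from V against 2.22, and 2.52 bases trimmed from J against 3.04. GC content of the CDR3 was 45.3% against 46.7%, and glycine made up 10.5% against 11.5% of the inner residues, without the first and the last. These measures include the bases that the rule counts, or come from the same alignments, so they are given as a description. On the recount, junctions built whole averaged 13.2 residues against 13.7, with 1.85 against 2.14 bases trimmed from V.

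**Figure D3:**
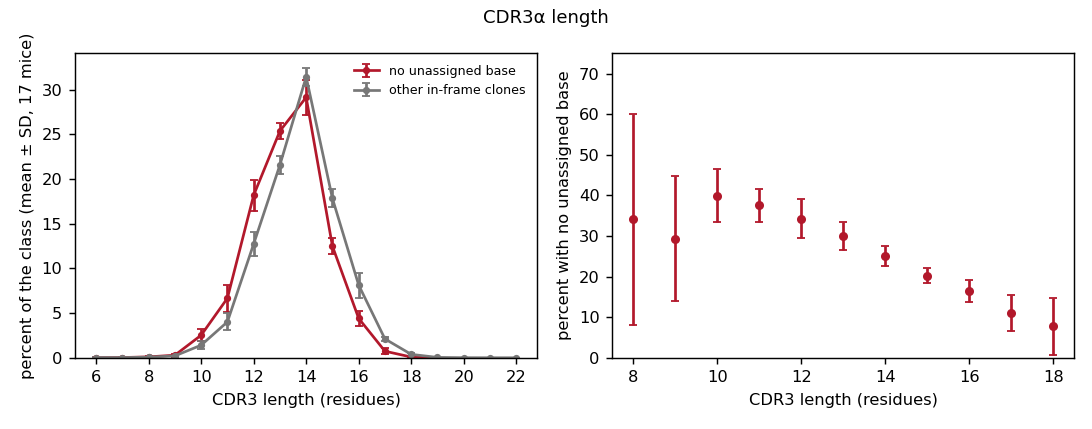
Left, length of the CDR3α in residues (horizontal axis) as percent of members and of other in-frame clones; right, percent of in-frame clones with no unassigned base at each length from 8 to 18 residues. Points and bars are means ± SD over 17 mice; the right panel falls from 40.0% at 10 residues to 7.75% at 18.

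Among clones of 10 residues 40.0% ± 6.41 were members (SD, n = 17), and the percentage fell at each length to 34.2% at 12, 25.2% at 14, 16.5% at 16 and 7.75% at 18 residues. Clones of 8 and 9 residues were members in 34.1% and 29.3% of cases, from as few as 1 clone in a mouse. Within the members, 44.3% carried palindromic bases at V or J and 33.4% were trimmed at both ends. Both ends were whole in 5.79% of members and 1.42% of reference clones, the form of sequences 1, 3, 4, 5 and 6. Of the 21170 members built whole without any palindromic base, 40.2% had V and J ends that share at least 1 base at the joint, so the exact point of joining cannot be placed.

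Out-of-frame rearrangements, which cannot make a TCRα chain, showed a similar proportion. Of in-frame clones 26.6% ± 2.20 and of out-of-frame clones 25.5% ± 2.26 had no unassigned base (SD, n = 17). The difference of 1.17 points, positive in 11 of 17 mice, was not past the threshold (paired permutation test, p = 0.141). With libraries reduced to 14772 molecules the difference was 2.03 points in 16 of 17 mice (paired permutation test, p = 0.00035), and on the recount it was -0.108 points with in-frame clones higher in 5 of 17 mice (paired permutation test, p = 0.882). In-frame clones of 12 to 14 residues stood 3.21 points above all out-of-frame clones, in 15 of 17 mice (paired permutation test, p = 0.00031), but the out-of-frame clones were of any length. Whether in-frame clones hold more such junctions thus depended on the setting.

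The proportion of members among in-frame clones was compared between the genotypes. It was 29.7%, 27.1%, 25.3% and 24.4% in WT 1 to 4 and 23.9%, 27.5%, 23.9%, 28.1% and 27.8% in β5i-KO 1 to 5. It was 28.5%, 29.3%, 27.2% and 30.3% in β5t-KO 1 to 4, and 23.9%, 26.7%, 24.5% and 24.4% in BIT 1, 2, 4 and 5. The 95% binomial interval (Wilson) was widest in β5t-KO 2, from 25.9% to 32.9%, and narrowest in BIT 1, from 23.4% to 24.4%, and covers counting error only.

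The group means were 24.9% ± 1.25 in BIT, 26.6% ± 2.34 in WT, 26.2% ± 2.16 in β5i-KO and 28.8% ± 1.31 in β5t-KO mice. BIT and β5t-KO mice did not overlap, and their means lay -3.95 points apart. The exact permutation p was 0.0286, the smallest that 4 mice against 4 allow, and 0.171 after adjustment over 6 comparisons. With 6 comparisons this smallest p could not pass the threshold on its own. The gap stayed between -4.56 and -3.44 points with any 1 of the 8 mice left out, and it was -2.48 points with BIT 3, at 32.2%, included (exact permutation test, adjusted p = 0.460), where the groups overlapped. The other 5 comparisons had adjusted p of 0.30 or more.

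Depth moved with this proportion. Across the 17 mice it fell with the logarithm of the number of in-frame clones (Pearson's r = -0.92, Spearman's rho = -0.94, permutation p = 1e-05 for both, adjusted p = 3e-05 over 3 relations, and r = -0.97 without the 2 mice farthest from the median). With the logarithm of in-frame molecules it was r = -0.60 and rho = -0.73 (permutation test, adjusted p = 0.0116 and 0.00172). With each library reduced to 14772 molecules the means were 27.2% ± 0.472 in BIT, 27.8% ± 1.62 in WT, 27.7% ± 0.651 in β5i-KO and 28.8% ± 0.740 in β5t-KO mice. BIT mice then lay -1.57 points from β5t-KO mice (exact permutation p = 0.0286, adjusted p = 0.171). The gap was thus smaller by more than 1.5 times with the number of molecules matched. In-frame clones per mouse still ranged from 577.9 to 9471 after this reduction, and the reduced values still fell with the molecules before it (r = -0.48, rho = -0.67, permutation test, adjusted p = 0.0520 and 0.004).

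**Figure D4:**
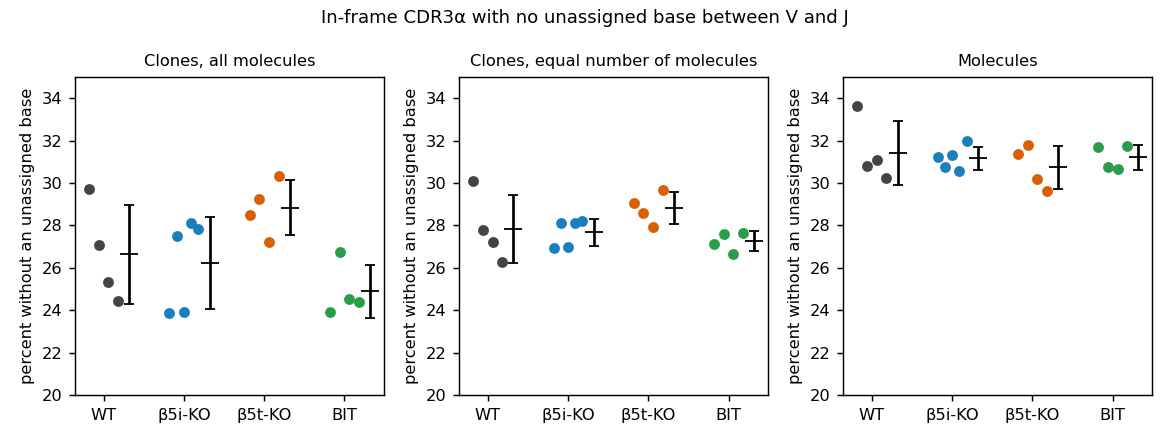
Percent of in-frame TCRα clones without an unassigned base, over all molecules (left) and over an equal number of molecules per mouse (middle), and percent of in-frame molecules in such clones (right), by genotype. Points are mice and bars are means ± SD; the vertical axis runs from 20% to 35%, and in the right panel the 4 genotypes lie between 29.6% and 33.6%.

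Counted by molecules, members held a nearly constant part of the repertoire. They held 31.2% ± 0.589 of in-frame molecules in BIT, 31.4% ± 1.51 in WT, 31.2% ± 0.541 in β5i-KO and 30.7% ± 1.02 in β5t-KO mice, with single mice between 29.6% and 33.6%. All 6 comparisons had an adjusted p of 0.929 (exact permutation test). Junctions built whole on the recount held 22.4% ± 0.702, 22.4% ± 1.30, 22.1% ± 0.329 and 20.1% ± 1.55 of molecules in the same order. The β5t-KO mean was 1.96 points below that of β5i-KO mice on the recount (difference -1.96, exact permutation p = 0.0159, adjusted p = 0.0952), and the other comparisons had adjusted p of 0.171 or more.

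Members with palindromic bases on the aligner's call held 40.3% ± 0.846 of member molecules in BIT and 38.9% ± 1.98 in WT mice. They held 41.0% ± 1.38 in β5i-KO and 46.3% ± 1.97 in β5t-KO mice. The 4 β5t-KO mice, at 44.5% to 49.0%, all lay above the highest mouse of the other genotypes at 42.3%. Sequences 7 and 8, described last, carry palindromic bases. With both left out the values were 40.2% ± 0.832 in BIT, 38.4% ± 2.11 in WT, 40.9% ± 1.38 in β5i-KO and 42.7% ± 1.58 in β5t-KO mice, and the β5t-KO mice overlapped β5i-KO and BIT mice. With palindromic bases counted as added, members held 16.5% ± 1.13 of molecules in β5t-KO and 18.4% ± 0.465 in β5i-KO mice (difference -1.87 points, exact permutation p = 0.00794, adjusted p = 0.0476). On the same count β5t-KO mice differed from WT mice by -2.72 points, and BIT mice from β5t-KO mice by 2.14 points. Both had exact permutation p = 0.0286, and groups of 4 and 4 mice can give no lower value. Adjusted p was 0.0571 for both, so neither passed the threshold. With sequences 7 and 8 left out, β5t-KO mice differed by -1.55 points from β5i-KO and -2.44 points from WT mice. BIT mice then differed from β5t-KO mice by 1.81 points. These values are given without a test because both sequences were chosen for their difference between genotypes.

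The members of β5t-KO mice were longer and less trimmed at V. Their CDR3α averaged 13.5 ± 0.0858 residues against 13.3 ± 0.0561 in β5i-KO mice, which is 0.194 residues more (exact permutation test, p = 0.00794, adjusted p = 0.0476 over 18 tests). They had lost 1.52 ± 0.176 V bases against 1.85 ± 0.0505 (difference -0.325, exact permutation p = 0.00794, adjusted p = 0.0476). Both differences had the same direction against WT and BIT mice, with no overlap and an adjusted p of 0.0643. Members of β5i-KO mice had lost 2.48 ± 0.0397 J bases against 2.61 ± 0.0298 in WT mice (difference -0.130, exact permutation p = 0.00794, adjusted p = 0.0476). With 1 mouse left out these calls were lost in most cases, where fewer permutations remain, and the differences kept their direction. When members were taken relative to the reference clones of the same mouse, no difference between genotypes was past the threshold (adjusted p of 0.381 or more).

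TRAV subgroups differed in how many of their clones were members. In edgeR's test within mice, 9 subgroups were used more and 3 less by members than by reference clones (57.1% of the 21 subgroups tested). TRAV17 stood highest at a log2 difference of 0.46 (SE 0.0607), and 32.9% ± 5.88 of its clones were members. TRAV8 (0.46), TRAV16 (0.40), TRAV1 (0.37) and TRAV19 (0.35) followed on the log2 scale. On the lower side, TRAV14 stood at -0.32 (SE 0.0207), with 23.4% ± 3.57 of its clones members, TRAV10 at -0.20 and TRAV12 at -0.15. The recount gave all 8 of these subgroups the same sign, with 0.77 for TRAV17 and -0.41 for TRAV14. TRAV14, the subgroup of the most abundant recurring member, was thus among the subgroups with the fewest members per clone.

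TRAJ genes differed more widely. In the same test 19 TRAJ genes were used more and 18 less by members (86% of the 43 genes tested). TRAJ5 stood highest, at a log2 difference of 0.86 (SE 0.0677), with 38.3% ± 8.84 of its clones members, and the recount gave the same 0.86. TRAJ16 (0.53), TRAJ53 (0.51), TRAJ11 (0.50) and TRAJ7 (0.48) followed, with 0.53, 0.72, 0.18 and 0.16 on the recount. TRAJ24 stood lowest at -3.27 (SE 0.104), with only 95 members among 2858 clones. TRAJ47 (-0.64), TRAJ45 (-0.38), TRAJ40 (-0.36) and TRAJ37 (-0.32) came next.

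For TRAJ24, TRAJ47 and TRAJ45 the aligner's reference, as read from the clones, starts inside the annotated germline segment, as it does for TRAJ57, so that germline bases were left unassigned. The bases before the reference start are in capitals.
TRAJ24, chr14:54433095-54433157, plus strand: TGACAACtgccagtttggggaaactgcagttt
TRAJ45, chr14:54410285-54410347, plus strand: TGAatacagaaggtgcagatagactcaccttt
TRAJ47, chr14:54409257-54409313, plus strand: TGgactatgcaaacaagatgatcttt
TRAJ57, chr14:54395962-54396026, plus strand: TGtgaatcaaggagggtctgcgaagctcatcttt
On the recount, 18.8% ± 3.78 of TRAJ24 clones were built whole, against 3.58% ± 2.22 that met the rule, and its log2 difference turned to 0.24. TRAJ47 turned to 0.36, and TRAJ45 to 0.018 (edgeR, adjusted p = 0.835). TRAJ40 and TRAJ37 stayed lower, at -0.18 and -0.29. The sign also turned for TRAJ22, the J gene of sequences 1, 2 and 4, and for TRAJ30. TRAJ22 went from 0.26 to -0.38 (edgeR, adjusted p = 6.8e-21 on the recount) and TRAJ30 from 0.075 to -0.25 (adjusted p = 2.6e-08). For both genes the aligner's reference does not start inside the annotated segment.

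**Figure D5:**
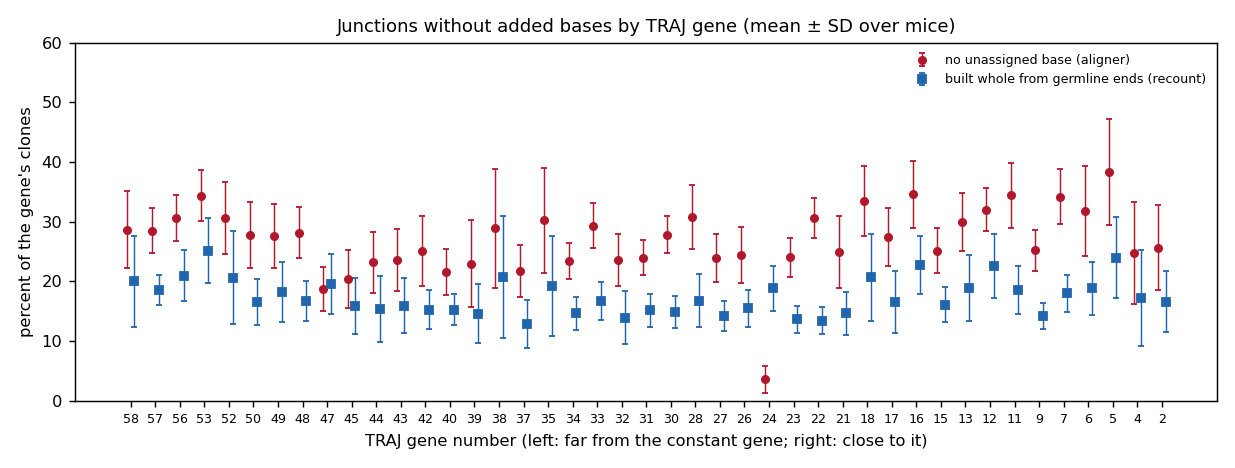
Percent of the clones of each TRAJ gene that had no unassigned base (red) and that were built whole from the germline ends on the recount (blue), as mean ± SD over mice with at least 5 clones of the gene. TRAJ24 stands at 3.58% in red and 18.8% in blue, and TRAJ5 at 38.3% and 23.9%.

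Between genotypes, the use of TRAJ52 by members was the largest difference in gene use. Members with TRAJ52 made up 0.820%, 1.68%, 0.624% and 0.918% of in-frame clones in the 4 β5t-KO mice. They made up 0.254% to 0.391% in WT, 0.257% to 0.439% in β5i-KO and 0.278% to 0.447% in BIT mice, so that β5t-KO mice did not overlap any other genotype. In edgeR's test β5t-KO mice were higher than WT by a log2 fold change of 1.32 (SE 0.226, adjusted p = 0.000167) and higher than β5i-KO by 1.23 (SE 0.210, adjusted p = 5.07e-05). BIT mice were lower than β5t-KO mice by a log2 fold change of -1.10 (SE 0.204, adjusted p = 0.000649). These 3 calls were kept with any single mouse left out.

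Reference clones with TRAJ52 moved the same way, with log2 fold changes of 0.82 against WT (edgeR, adjusted p = 0.000167), 0.85 against β5i-KO (adjusted p = 3.49e-05) and, in BIT relative to β5t-KO mice, -0.61 (adjusted p = 0.0029). TRAJ52 lies in the TRAV-proximal end of the TRAJ array, which is joined by early rearrangements of an allele.

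The other called TRAJ genes, apart from TRAJ22, lie in the same end of the array. Against WT, members of β5t-KO mice used 4 TRAJ genes more and none less (17.4% of the 86 combinations of TRAJ gene and class tested were called). These were TRAJ52, TRAJ57 (0.62), TRAJ49 (0.53) and TRAJ56 (0.51). Reference clones with TRAJ57 and TRAJ49 were also called higher, at 0.48 and 0.35 (edgeR, adjusted p = 0.0289 for both). Those with TRAJ56 stood at 0.38 without a call (adjusted p = 0.0715). Against β5i-KO mice 5 genes rose and none fell (12.8% called), among them TRAJ50 at 0.70 (adjusted p = 0.00864). BIT mice used 5 genes less than β5t-KO mice and none more (12.8% called), including TRAJ22 at -0.40 (adjusted p = 0.0406). Apart from TRAJ52, reference clones with these genes were not called against β5i-KO mice or between BIT and β5t-KO mice.

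TRAJ56 members made up 0.662% ± 0.0953 of in-frame clones in β5t-KO mice, against 0.471% ± 0.0620 in β5i-KO (log2 fold change 0.62, edgeR, adjusted p = 0.00897) and 0.465% ± 0.0352 in BIT mice (-0.59 for BIT against β5t-KO, adjusted p = 0.0111). Neither of these groups overlapped β5t-KO mice. Both calls were lost without β5t-KO 1 (edgeR, adjusted p = 0.125 and 0.169), and the second also without β5t-KO 3. The calls of TRAJ49, TRAJ50, TRAJ57 and TRAJ22 were each lost without 1 or more single mice, among them β5t-KO 1 for TRAJ49 and TRAJ50 and β5t-KO 3 for TRAJ57. Between WT, β5i-KO and BIT mice edgeR called no TRAJ gene of members, with 1 gene at an unadjusted p under 0.05 in each of the 3 comparisons.

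TRAV subgroup use by members showed fewer calls. β5t-KO mice used 2 subgroups more than WT and none less (11.9% of the 42 combinations of subgroup and class tested were called), and 1 more than β5i-KO (9.52%). BIT mice used 1 more and 1 less than WT (16.7%), and 1 more and 2 less than β5t-KO mice (19%). No subgroup of members was called between β5i-KO and WT or between BIT and β5i-KO mice, with 0 and 1 at an unadjusted p under 0.05.

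TRAV17 members made up 0.600%, 0.457%, 0.673% and 1.09% of in-frame clones in the β5t-KO mice, 0.371% ± 0.0515 in the BIT, 0.469% ± 0.219 in the WT and 0.419% ± 0.0298 in the β5i-KO mice. The log2 fold change was 0.70 against WT (edgeR, adjusted p = 0.0323), 0.73 against β5i-KO (adjusted p = 0.021) and, in BIT relative to β5t-KO mice, -0.90 (adjusted p = 0.00648). The call against BIT mice was kept with any single mouse left out, while the other 2 were lost without β5t-KO 4 (edgeR, adjusted p = 0.154 and 0.0655) and without several other mice. The reference clones with TRAV17 were called in the same direction in each of these comparisons. TRAV14 members made up 2.43% of in-frame clones in BIT and 3.57% in β5t-KO mice (log2 fold change -0.51, adjusted p = 0.0139), while the reference clones with TRAV14 stood at -0.05 (adjusted p = 0.73). The difference between these 2 values was not tested, and the call of the members was lost without BIT 1 (edgeR, adjusted p = 0.0602) or β5t-KO 4 (adjusted p = 0.0635). TRAV13 members were higher in β5t-KO than in WT mice by 0.49 (adjusted p = 0.0323), a call lost without β5t-KO 1 (adjusted p = 0.119) and without several other mice. TRAV1 members were higher in BIT than in β5t-KO mice by 0.80 (adjusted p = 0.0378) and than in WT mice by 0.61 (adjusted p = 0.042), and TRAV12 members were lower in BIT than in WT mice by a log2 fold change of -0.40 (adjusted p = 0.0187). Each of these 3 calls of BIT mice was lost without BIT 1 and without some other single mice. Reference clones with TRAV12 were also called lower in BIT than in WT mice, at -0.24 (edgeR, adjusted p = 0.0136). Those with TRAV1 were higher in BIT mice in both comparisons without a call. Reference clones with TRAV13 stood at 0.35 in β5t-KO against WT mice, also without a call (adjusted p = 0.0743).

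Single member sequences were compared over 3951 recurring CDR3 nucleotide sequences, of which 2004 were members. For the comparison of β5t-KO with WT mice edgeR called none (845 members at an unadjusted p under 0.05, 828 by DESeq2), and likewise for β5i-KO with WT mice (406 and 350). BIT mice had 1 member lower than WT (0.0506% of all sequences tested were called), 1 lower than β5i-KO (0.0253%) and 2 lower than β5t-KO mice (0.177%). Members of β5t-KO mice had 1 sequence higher than in β5i-KO mice (0.127%). DESeq2 called 108 to 908 members in these 4 comparisons. With TMM scaling edgeR itself called 973 members for BIT against β5t-KO mice and 833 for β5t-KO against β5i-KO mice, so the number of called members depended on both tool and scaling. Members made up 50.7% of the sequences tested. Calls among the other sequences are not given for DESeq2 and TMM, so these counts are not a result about members. Sequences entered the test by their abundance in the mice of any single genotype, so one present in that genotype alone was kept. This choice favours sequences that differ between genotypes. The unadjusted counts and those of DESeq2 and TMM therefore do not measure how many members differ.

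The called members were sequences 7 and 8, which share the TRAV12-1 end and the residues CALSDRY. Sequence 7 was found in 13 mice, all of those outside the BIT group. Its abundance was taken in reads per 1000000 reads of the in-frame TCRα clones of the mouse (CPM). It was 315, 548, 685 and 338 in WT 1 to 4 and 142, 333, 20.7, 456 and 130 in β5i-KO 1 to 5. It was 4499, 4866, 3036 and 1253 in β5t-KO 1 to 4 and 0 in all 4 BIT mice. Against a floor of 3 molecules over the 836143 in-frame molecules of the BIT group, it was at least 163-fold higher in WT, at least 58.8-fold higher in β5i-KO and at least 1143-fold higher in β5t-KO mice. The adjusted p of edgeR for BIT mice was 0.00129 against WT, 0.00411 against β5i-KO and 5.3e-05 against β5t-KO mice. The call against β5t-KO mice was kept with any single mouse left out, that against WT was lost without BIT 2 (adjusted p = 0.0541), and that against β5i-KO without BIT 1 or BIT 5 (adjusted p = 0.0639 and 0.0694). Each β5t-KO mouse stood above every other mouse without a call against β5i-KO (adjusted p = 0.0639) or WT mice (adjusted p = 0.219).

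Sequence 8 was found in 15 mice and was highest in β5t-KO mice, at 11191, 8684, 10007 and 16884 CPM. It stood at 1917, 1038, 1367 and 753 CPM in WT, at 321, 192, 249, 0 and 762 CPM in β5i-KO and at 0, 192, 242 and 27.2 CPM in BIT mice. The β5t-KO mice did not overlap any other genotype. The log2 fold change of BIT against β5t-KO mice was -6.66 (SE 1.47, edgeR, adjusted p = 0.00453), and that of β5t-KO against β5i-KO mice was 5.26 (SE 1.25, adjusted p = 0.0376). The first call was lost without BIT 2 (edgeR, adjusted p = 0.0593) and the second without any 1 of the 5 β5i-KO mice (adjusted p between 0.0647 and 0.0779). Against WT mice β5t-KO stood at 3.20 without a call (adjusted p = 0.0821).

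Neither sequence 7 nor sequence 8 was built whole from the germline ends. The residues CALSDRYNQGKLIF were encoded by 19 nucleotide sequences, 3 of them members. All 19 together held 5.33% of in-frame molecules in β5t-KO, 0.817% in WT, 0.165% in β5i-KO and 0.0308% in BIT mice, and the member forms held 0.440% in β5t-KO mice. The residues CALSDRYSNNRLTL were encoded by 13 nucleotide sequences, 3 of them members, which held 1.52% of in-frame molecules in β5t-KO mice out of 1.90% for all 13. For the first residue sequence most molecules of β5t-KO mice thus came from clones outside the rule, and for the second from members.

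With sequences 7 and 8 left out, members held 29.4% ± 1.17 of in-frame molecules in β5t-KO, 31.1% ± 0.521 in β5i-KO, 31.2% ± 0.596 in BIT and 31.3% ± 1.45 in WT mice. These values are given without a test, since both sequences were chosen for their difference between genotypes.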

How the data were processed

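TCRα transcripts of sorted CD8 T cells were amplified by the authors with a SMARTer TCR profiling kit and assembled into clones with MiXCR, whose version and settings are not given in the sources used here. The deposited tables hold, for each mouse and clone, whole-number read counts and unique molecule counts, not normalised, and the aligned positions of V and J. Each mouse has its own table. The TCRβ tables were not used. For WT 5 no TCRα table was analysed here. BIT 3 (475 in-frame clones, 153 members) and β5t-KO 5 (24 clones, 9 members) were left out. Groups were taken from the labels, and p-values measure the spread between these mice. No 2 tables of a group were identical (28 pairs). Members, lists and tests were chosen with earlier results of these data known.

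A member had no gap between V end and J start. No clone was dropped for a missing position. On the recount, CDR3 sequences were matched exactly to the germline ends of GENCODE vM39 (GRCm39; 116 of 116 V and 43 of 43 J names), with palindromic bases allowed. Palindromic means beyond the segment end as its reverse complement. The clone tables hold no coordinates.

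Group means were compared with two-sided exact permutation tests, classes within mice with paired permutation tests (100000 sign changes), both with Benjamini-Hochberg adjustment and a threshold of 0.05. Gene use (clone counts, genes with at least 5 clones in at least 8 columns within mice or 4 mice between genotypes) and recurring sequences (read counts, at least 10 CPM in at least 3 mice of a group) were tested with edgeR 4.0.16 (quasi-likelihood, library size normalisation, all 4 groups in one fit) in R 4.3.3, over both classes, and a clone that listed several V genes counted for the first. DESeq2 1.42.0 was an alternative. Simulated data were used to test the edgeR script. Thinning drew 14772 molecules per library, 10 times. The text names the 6 member sequences found in the most mice, called member sequences whose groups did not overlap (at most 3 per comparison), and called TRAV subgroups and TRAJ genes (at most 5 per direction). Other values used SciPy 1.17.1, pandas 2.3.3 and NumPy 2.4.6 in Python 3.11.15, and Matplotlib 3.10.9 for figures. Alternatives were thinning, reads and molecules, clones of at least 2 molecules, 12 to 14 residues, palindromic bases as added, TMM, no filter, only the groups compared, the replicate block, each mouse left out and, added after seeing the data, the recount and near copies left out.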

Additional observations from a re-analysis of the deposited data

Results flagged for a closer look

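Of 99 groups of 4 or 5 mice examined for a mouse far from the rest, 3 held one, where chance gives about 1 in 20, and all 3 concern sequence 3 (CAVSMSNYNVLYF, TRAV7D-5 with TRAJ21). It held 0.151% of in-frame molecules in WT 1 against 0.0292% to 0.0405% in the other WT mice. It held 0.204% in β5t-KO 2 against 0.0199% to 0.0284% in the other β5t-KO mice, and 0.0441% in BIT 1 against 0.0183% to 0.0223% in the other BIT mice. WT 1 and β5t-KO 2 had the fewest in-frame clones of their groups, 2589 and 656, and BIT 1 had the most, 28642.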

How the results depend on the processing

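Of 1924 alternative values for 123 results, 1673 kept direction and side of the threshold, and the cause of the changes in the other 251 was not tested. The difference in member molecules between β5t-KO and β5i-KO mice passed with palindromic bases as added (-1.87), and that between in-frame and out-of-frame clones with thinning (2.03). Within mice, fewer V bases trimmed in members turned to 0.0843 more with palindromic bases as added, and the mean TRAJ number of members, 0.724 lower than that of reference clones in the main setting, stood at -0.143 with palindromic bases as added, -0.193 for 12 to 14 residues and 0.177 on the recount. On the recount the log2 differences of TRAJ24, TRAJ47 and TRAJ45 turned to 0.24, 0.36 and 0.018, and those of TRAJ22 and TRAJ30 turned to -0.38 and -0.25. Differences of members between genotypes were lost on the recount, with at least 2 molecules per clone and with a replicate block: CDR3α length of β5t-KO against β5i-KO mice (0.173, 0.213 and 0.193), V trimming (-0.307, -0.340 and -0.317) and J trimming of β5i-KO against WT mice (-0.143, -0.100 and -0.125).

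Counts of called TRAV subgroups became, for β5t-KO against WT mice, 0 with TMM and with only the groups compared, and 1 with at least 2 molecules and on the recount. For BIT against WT mice they became 1 with TMM, DESeq2, no filter, only the groups compared, the replicate block and the recount. For BIT against β5t-KO mice 7 were called with only the groups compared, and for β5t-KO against β5i-KO mice 3 with TMM and DESeq2 and 2 with at least 2 molecules, the block and the recount. TRAJ counts became 2 with DESeq2 for β5t-KO against WT mice, and 3 for BIT against β5t-KO mice with TMM, DESeq2, at least 2 molecules, only the groups compared and the recount. Of the recurring sequences tested, 50.7% were members, and the following counts are of members only. The sequences were kept by their abundance in any single genotype, which favours those that differ between genotypes. Called member sequences by DESeq2 were 350 for β5i-KO and 828 for β5t-KO against WT mice, 276 for BIT against WT, 108 against β5i-KO and 908 against β5t-KO mice, and 877 for β5t-KO against β5i-KO mice. With TMM they were 2, 0, 0, 973 and 833 for β5t-KO against WT, BIT against WT, β5i-KO and β5t-KO, and β5t-KO against β5i-KO mice. With unique molecules they were 10, 4 and 12 for β5t-KO against WT, BIT against β5t-KO and β5t-KO against β5i-KO mice, and with the block 0, 1 and 0 for BIT against β5i-KO, BIT against β5t-KO and β5t-KO against β5i-KO mice. Same-numbered mice were not taken as paired: their deviations from the group means in TRAV and TRAJ use by members correlated over 0.1 in 16 of 44 cases (r from -0.57 to 0.60), and between the groups' shares over numbers r was -0.49 to 0.88 for clones and 0.18 to 1.00 for molecules. The block changed 17 of 93 values. The study describes its TCR data as coming from several independent measurements, and the labels do not say which mice were measured together.

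With 1 mouse left out at a time, length differences of members ranged from 0.210 to 0.275 (β5t-KO against WT), -0.208 to -0.143 (BIT against β5t-KO) and 0.152 to 0.217 (β5t-KO against β5i-KO), those in V trimming from -0.394 to -0.281, 0.228 to 0.341 and -0.385 to -0.272, and those in J trimming from -0.247 to -0.142, 0.118 to 0.223 and -0.117 to -0.0117, with -0.145 to -0.121 for β5i-KO against WT mice. TRAV counts ranged from 0 to 2 (β5t-KO against WT and BIT against WT), 1 to 4 (BIT against β5t-KO) and 0 to 3 (β5t-KO against β5i-KO), and TRAJ counts from 1 to 5, 1 to 5 and 2 to 6 (β5t-KO against WT, BIT against β5t-KO, β5t-KO against β5i-KO). Called member sequences ranged from 0 to 5 (β5t-KO against WT), 0 to 1 (BIT against WT), 0 to 49 (BIT against β5i-KO, 49 without BIT 2), 1 to 5 (BIT against β5t-KO) and 0 to 4 (β5t-KO against β5i-KO). β5t-KO 2, with 192 members, limits the precision of its group.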
